A study of Mus musculus with 8 samples.

Results

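This account compares mouse stem cell lines derived and kept in FGF2 (FGF-ESC) with the uncultured inner cell mass (ICM) of the blastocyst, the tissue from which such lines are made. The 4 arrays were chosen by their titles, 2 of FGF-ESC and 2 of ICM, out of 8 arrays in the series. All samples were wild type C57BL/6J mice, and the labels give embryonic day 3.5 as the stage of the ICM and as the stage of origin of every line. FGF-ESC were grown on mouse embryonic fibroblast feeders in Knockout DMEM with 20% Knockout serum replacement and FGF2. The ICM was isolated by immunosurgery, which lyses the outer trophectoderm, and was not cultured. The other 4 arrays, 2 of ESC and 2 of EpiSC, enter here only as reference levels. ESC, the naive state, were grown in DMEM with 15% fetal calf serum, LIF and 2 kinase inhibitors (2i) without feeders. EpiSC, which stand for the primed state, had the medium and feeders of FGF-ESC. The labels name neither the number of lines or passages nor how many embryos made up an ICM sample.

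The ICM of the early blastocyst is not yet a uniform tissue. It holds cells on their way to the epiblast, which forms the embryo and gives rise to pluripotent lines, and cells on their way to the primitive endoderm, which forms the yolk sac lining and whose specification depends on FGF signalling. In the mouse, naive lines are usually kept by LIF and by blocking the FGF to ERK pathway, while FGF2 with activin-type signals keeps the primed state of the later epiblast. Cells taken into culture also leave behind transcripts of the cleavage stages and take up the metabolism and growth of a dividing line.

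Levels are log2 values of the array's probe sets as deposited, so a difference of 1 is a doubling. Differences are FGF-ESC minus ICM, given with the standard error (SE) of a limma fit to all 8 arrays, with n = 2 arrays per group. A gene was called higher or lower at an adjusted p below 0.05 (Benjamini-Hochberg over 13597 tested genes) together with a log2 difference of at least 1. The labels do not state whether both arrays of a group were made from different cultures or embryo pools, so the p-values cover no more than the spread among these arrays, which may be technical. Cultures and ICM were extracted with different RNA kits (NucleoSpin II and NucleoSpin XS), so kit, culture and cell type cannot be told apart in this comparison. Between both FGF-ESC arrays 395 genes differed by 1 or more, and between both ICM arrays 80 did.

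Some defining markers bore out both labels, while others did not separate them. The epiblast genes Nanog and Tdgf1 were at 8.65 or above on all 4 arrays. Of the other epiblast markers, Sox2 and Fgf4 were higher in FGF-ESC, and Tfcp2l1 and Zfp42 were lower. Pou5f1, Klf2, Esrrb and Dppa5a were not called and were at 6.90 or below on all 4 arrays. ICM alone showed the primitive endoderm factor Gata6, at 8.0 and 8.04. Of other primitive endoderm markers, Cubn was also lower in FGF-ESC. Gata4, Sox17, Lama1 and Hnf4a were not called, and Pdgfra and Dab2 overlapped between the groups. Of 23 tested trophectoderm genes, 11 were higher in ICM (47.8%, against 5.22% of all tested genes) and 0 were lower. The FGF-ESC arrays also carried fibroblast transcripts. The mean over 24 tested fibroblast markers was 8.56 and 7.25 on FGF-ESC arrays 1 and 2, against 4.27 and 4.37 in ICM, 4.32 and 4.38 in ESC, and 4.99 and 5.18 in EpiSC, which shared the feeders. Their median difference was 3.23, and 2.46 without FGF-ESC array 1. In RNA from whole cultures, more cells of a type and more RNA per cell cannot be told apart.

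Between FGF-ESC and ICM, 1301 genes were called higher in FGF-ESC (9.57% of those tested) and 710 lower (5.22%). The differences were often large. In FGF-ESC 427 genes were higher and 145 lower by at least 2 on the log2 scale, and 156 and 52 by at least 3. The median over all tested genes was -0.02, on arrays deposited with nearly equal medians. The ICM mean lay below 4.24, the median of all deposited values, for 393 of the 1301, and the FGF-ESC mean lay below it for 175 of the 710. No detection calls were used, so whether the transcript was present at all in the lower group is not known for those genes. The filter on dim genes was passed through the ICM arrays alone by 211 genes, of which 120 were called, and through the FGF-ESC arrays alone by 129, of which 87 were called. The filter fixed the direction of these genes, and some of them are counted in the lists below.

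**Figure D1:**
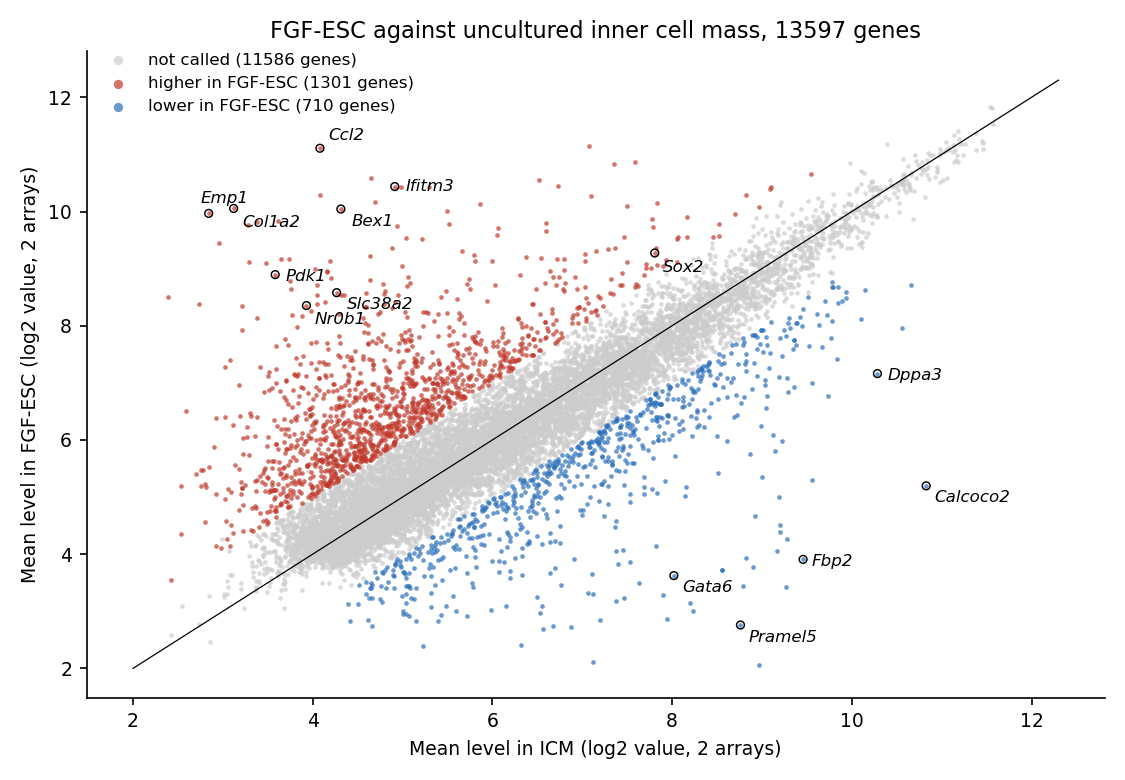
Mean level in FGF-ESC (vertical) against mean level in ICM (horizontal), both as log2 values over 2 arrays, for 13597 tested genes. Red points are the 1301 genes called higher and blue points the 710 called lower, with examples from both ends circled. The line marks equal levels.

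The genes lost from the ICM were led by transcripts of the preimplantation embryo. Pramel5, a member of the leucine-rich PRAME family, measured 2.78 and 2.74 in FGF-ESC and 8.90 and 8.62 in ICM. Its difference was -6.00 ± 0.13 (adjusted p = 1.22e-07, limma). Pramel6 and Pramel7 of the same family differed by -5.02 ± 0.15 and -4.83 ± 0.15. Pramel7 passed the filter on dim genes through the ICM arrays alone, so its direction was fixed by it. Pramel5 lay below the overall median on both FGF-ESC arrays, so the filter may have fixed its direction too. The FGF-ESC and ICM arrays were far apart for each of these genes, and FGF-ESC did not differ from ESC or EpiSC by the call rule.

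The same held for Khdc1a and Khdc1c, KH-domain genes of the egg and cleavage embryo (-5.85 ± 0.20 and -5.08 ± 0.34), Trim43a (-5.12 ± 0.13) and the predicted gene LOC100039010 (-6.91 ± 0.14), which had the lowest difference of all called genes. These belong to families of near-identical copies, so which copy a probe set read is uncertain. Gm11545, a predicted gene, was lower by a log2 difference of -5.11 ± 0.14.

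Enzymes and a transporter were also among the 12 largest falls. Fbp2, a fructose bisphosphatase of gluconeogenesis, was at 3.90 and 3.92 in FGF-ESC against 9.43 and 9.48 in ICM (difference -5.55 ± 0.12). Slc1a1, a glutamate and cysteine carrier, differed by -5.34 ± 0.15. It passed the filter on dim genes through the ICM arrays alone, so its direction was fixed by it. Enpep, a cell-surface aminopeptidase, differed by -5.22 ± 0.11, and Alppl2, an alkaline phosphatase of the early embryo, by -5.05 ± 0.12. Each of these was near the FGF-ESC level in ESC and EpiSC too, with no difference called.

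Calcoco2, an adaptor that delivers cargo to autophagosomes, behaved differently across the cultures. It measured 10.70 and 10.95 in ICM, 7.83 and 8.04 in ESC, 5.07 and 5.32 in FGF-ESC, and 3.61 and 3.59 in EpiSC. FGF-ESC thus lay 49.6-fold below ICM (-5.63 ± 0.15), below ESC (-2.74 ± 0.15, adjusted p = 3.71e-05) and above EpiSC (1.6 ± 0.15, adjusted p = 3.12e-04), and no arrays of neighbouring groups overlapped. For scale, 717 genes were called higher (5.27%) and 127 lower (0.934%) in FGF-ESC than in ESC, and 715 higher (5.26%) and 275 lower (2.02%) than in EpiSC. Among 10 selective autophagy receptors, 3 were called lower than in ICM and 0 higher. The others were Tollip (-1.36 ± 0.20) and the endoplasmic reticulum receptor Ccpg1 (-1.11 ± 0.12). Sqstm1, the p62 receptor, was not called (0.55 ± 0.25).

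Of 25 genes of cleavage stage families with a probe set, 11 passed the filter on dim genes, and 5 of these were lower and 0 higher. Of the 5, 2 passed through the ICM arrays alone and so had to differ. The 5 were Pramel6, Pramel7, the homeobox genes Obox6 (-2.03 ± 0.17) and Crxos (-2.0 ± 0.22), and Calcoco2. Calcoco2 is the autophagy adaptor described above and not one of these families. It was placed on the list with earlier results of these data known. Zfp352, a zinc finger gene of the early embryo, was not called (0.22 ± 0.16). Of 41 maternal oocyte genes with a probe set, 15 passed the filter on dim genes, and of these 2 were higher and 2 lower. That is 13.3% each way, against 9.57% higher and 5.22% lower over all tested genes. Khdc3, part of the subcortical maternal complex of the egg, was the larger fall, from 9.11 and 9.29 in ICM to 4.61 and 4.16 in FGF-ESC (-4.82 ± 0.17). Its partner Ooep was not called (0.74 ± 0.18). The 2 that were higher, Uchl1 and Nlrp4f, were both no longer called without FGF-ESC array 2.

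Among genes of the extraembryonic lineages the calls were mostly, but not all, in the direction of lower levels. Of 31 primitive endoderm genes with a probe set 26 were tested, and 6 were lower, 2 higher and 18 neither, with a median difference of -0.31 (-0.54 without FGF-ESC array 1). Of 28 trophectoderm genes 23 were tested, and 11 were lower, 0 higher and 12 neither, with a median of -0.91, and 1 was higher without FGF-ESC array 2. Of the 11, 3 passed the filter on dim genes through the ICM arrays alone, so that count and that median owe part of their size to the filter. Gata6, the factor that starts the primitive endoderm programme, measured 3.81 and 3.44 in FGF-ESC against 8.0 and 8.04 in ICM (-4.39 ± 0.15, adjusted p = 5.9e-07). Both FGF-ESC arrays lay at the level of ESC. Cubn, an endocytic receptor of the yolk sac endoderm, was lower by a difference of -3.46 ± 0.13, and its partner Lrp2 by -2.25 ± 0.21. Cubn passed the filter on dim genes through the ICM arrays alone, so its direction was fixed by it. Cited1, a transcriptional coregulator, differed by -1.45 ± 0.12.

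The receptor through which the primitive endoderm reads FGF, Fgfr2, was at 4.35 and 4.44 in FGF-ESC and 6.43 and 6.34 in ICM (-1.99 ± 0.17). Fgfr1, the receptor also used by epiblast cells, was at 7.29 and 6.57 against 6.88 and 6.8, and was not called (0.09 ± 0.21). Later endoderm factors were low in both groups. Gata4 (-0.30 ± 0.15) and Sox17 (-0.59 ± 0.18) were not called, with ICM levels of 5.31 or less. Pdgfra, a receptor of primitive endoderm and also of fibroblasts, was at 8.18 and 6.68 in FGF-ESC and 8.06 and 7.82 in ICM. The groups overlapped (-0.51 ± 0.39), but without FGF-ESC array 1, which had the higher fibroblast level, Pdgfra was called lower. The 2 higher members were the matrix genes Sparc (2.00 ± 0.17) and Serpinh1 (1.41 ± 0.37), a collagen chaperone that lost its call without FGF-ESC array 1 or ICM array 1. The count of higher members was 1 without either of those arrays and 4 without FGF-ESC array 2.

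Among trophectoderm genes the keratins Krt8 and Krt18 were lower by -2.13 ± 0.33 and -1.93 ± 0.31. Krt8 measured 6.67 and 5.80 in FGF-ESC and 8.45 and 8.27 in ICM. Cdx2, the factor that defines the lineage, was at 3.72 and 4.06 against 5.76 and 5.02 (-1.5 ± 0.24), and Eomes at 4.30 and 4.50 against 5.57 and 5.75 (-1.26 ± 0.18). Tspan8, a tetraspanin, differed by -2.80 ± 0.31, the ganglioside activator Gm2a by -2.29 ± 0.16, the water and glycerol channel Aqp3 by -1.78 ± 0.17 and Tead4 by -1.30 ± 0.18. Tead4, which acts upstream of Cdx2, was at 7.90 and 7.84 in ESC and 7.21 and 7.64 in ICM, and lower in FGF-ESC than in ESC (-1.75 ± 0.18). Whether these ICM transcripts came from remaining outer cells was not tested.

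Of 25 epithelial junction genes, 6 were lower and 1 higher, with a median of -0.44. Without FGF-ESC array 1 these were 4, 2 and -0.29, and without array 2 the lower were 9 and the median -0.68. Dsp, the desmosomal plaque protein, was at 3.57 and 3.86 in FGF-ESC and 5.94 and 6.45 in ICM (-2.49 ± 0.27). The tight junction genes Cldn7 (-1.90 ± 0.26) and Ocln (-1.24 ± 0.17) and the splicing regulator Esrp2 (-1.78 ± 0.15) were lower as well. Cdh1, the E-cadherin of the compacted embryo and of naive colonies, was not called, at 9.14 and 9.62 against 9.80 and 9.50. The single higher member was Rab25, a trafficking GTPase (1.42 ± 0.19).

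Most core pluripotency factors, like most tested genes, did not differ by the call rule, and naive genes moved in both directions. Of 17 core factors 1 was higher (5.9%), 1 lower (5.9%) and 15 neither. These shares were near those over all tested genes (9.57% higher and 5.22% lower). Nanog measured 8.65 and 9.37 in FGF-ESC and 9.22 and 9.25 in ICM, with overlapping arrays (-0.22 ± 0.21). Pou5f1, which encodes OCT4, was at 5.97 and 5.93 against 6.47 and 6.66. Its difference of -0.62 ± 0.12 (adjusted p = 0.00416) was smaller than the fold minimum. Sox2 was higher in FGF-ESC, at 8.96 and 9.59 against 7.87 and 7.74 (1.47 ± 0.20). Dppa2, an activator of genes at the start of zygotic transcription, was lower (-2.41 ± 0.15). Leaving out ICM array 2 raised the higher core factors from 1 to 3, and leaving out FGF-ESC array 1 raised them to 2. Leaving out FGF-ESC array 2 raised the lower ones to 2.

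Of 26 naive genes, 9 were lower than in ICM, 6 higher and 11 neither, with a median of -0.19 (0.07 without FGF-ESC array 1 and -0.44 without array 2). Of the 9, 2 (Spic and Pramel7) passed the filter on dim genes through the ICM arrays alone, so their direction was fixed by it. Nr0b1, which encodes the orphan receptor DAX1, had the largest rise, from 4.23 and 3.63 in ICM to 8.09 and 8.61 in FGF-ESC (4.42 ± 0.32). The same gene was at 8.23 and 8.50 in ESC and no higher than 4.4 in EpiSC, and FGF-ESC exceeded EpiSC by 4.4 ± 0.32 (adjusted p = 1.07e-04). Klf4 was at 8.44 and 8.59 against 7.23 and 7.11 in ICM (1.34 ± 0.13). Its level in EpiSC was 4.55 and 4.82.

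Morc1, a germ cell repressor of transposons, rose by 2.81 ± 0.25, and Lifr, the LIF receptor, by 1.15 ± 0.14. Fgf4, the FGF that epiblast cells secrete, was at 7.57 and 8.14 against 6.64 and 6.71 (1.18 ± 0.23) but was not called without FGF-ESC array 2. Prdm14, which keeps DNA methylation low in naive cells, was 0.79 ± 0.20 above ICM and called only without FGF-ESC array 1.

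The lower naive genes had not all fallen to the same floor. Spic, an ETS factor of the ICM, measured 3.40 and 3.16 in FGF-ESC and 7.89 and 7.91 in ICM (-4.62 ± 0.12), and was equally low in ESC and EpiSC. Dppa3, a maternal protector of methylation imprints, was at 6.78 and 7.54 against 10.38 and 10.19 (-3.12 ± 0.26), a level close to that of ESC and above EpiSC (2.72 ± 0.26). Tfcp2l1, a target of LIF signalling, was at 7.01 and 7.26 in FGF-ESC, 8.44 and 8.40 in ICM, 8.99 and 8.78 in ESC, and 4.82 and 5.19 in EpiSC. FGF-ESC therefore lay between the naive and primed lines, with tested differences of -1.28 ± 0.16 from ICM, -1.75 ± 0.16 from ESC and 2.13 ± 0.16 from EpiSC.

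That intermediate place recurred. Tbx3 (-1.41 ± 0.14 from ICM), Zfp42, known as REX1 (-1.45 ± 0.21), and the adhesion molecule Pecam1 (-1.95 ± 0.18) were each lower than in ICM and ESC and higher than in EpiSC, all by the call rule. Zfp42 measured 7.77 and 8.21 in FGF-ESC, 9.43 and 9.45 in ICM, 9.28 and 9.26 in ESC, and 4.91 and 5.52 in EpiSC. Nr5a2, an orphan receptor that can drive Pou5f1, was lower than ICM by a difference of -2.01 ± 0.14 and higher than EpiSC by 2.01 ± 0.14. Its difference from ESC (-0.76 ± 0.14) missed the fold minimum. Klf2 (-0.29 ± 0.21), Klf5 (-0.65 ± 0.27) and Esrrb (0.39 ± 0.16) were not called against ICM.

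**Figure D2:**
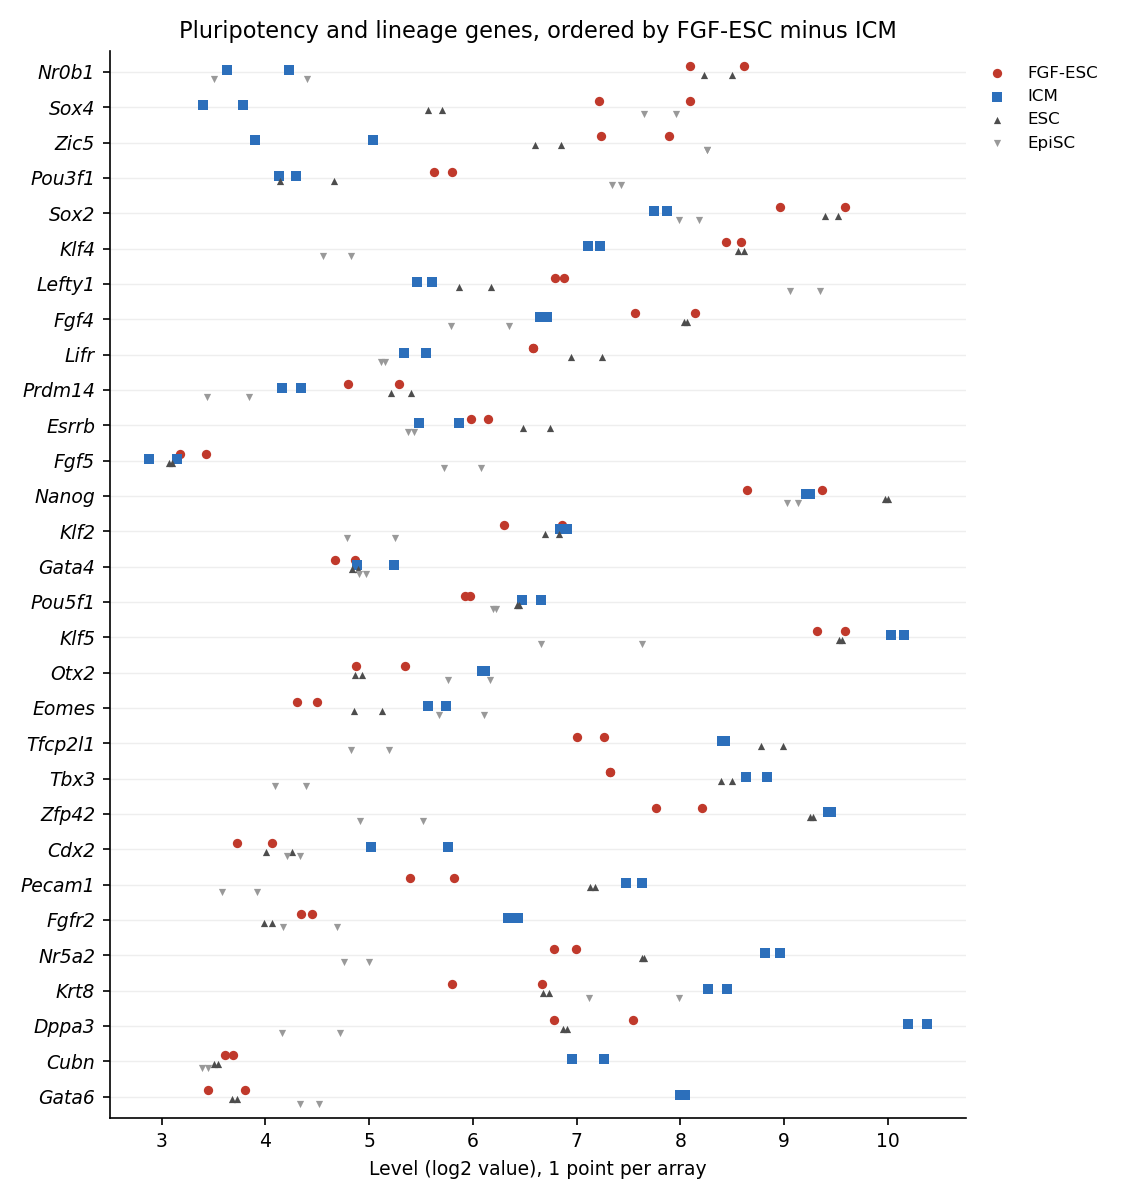
Level of 30 pluripotency and lineage genes (log2 value), 1 point per array, for FGF-ESC (circles), ICM (squares), ESC (upward triangles) and EpiSC (downward triangles), ordered by FGF-ESC minus ICM. Nr0b1, Sox4 and Zic5 head the order with FGF-ESC far to the right of ICM, and Dppa3, Cubn and Gata6 close it with FGF-ESC far to the left.

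Of 25 primed epiblast genes, 9 were higher than in ICM and 0 lower, with a median of 0.77, and 1 was lower without FGF-ESC array 2 or either ICM array. The largest were Sox4, at 8.09 and 7.21 against 3.40 and 3.78 (4.06 ± 0.27), and the zinc finger gene Zic5, at 7.24 and 7.89 against 5.04 and 3.90 (3.09 ± 0.35). A second probe set gave 2.31 for Sox4 and 1.45 for Zic5. Other members stood above ICM but well below EpiSC. Pou3f1, or OCT6, was 1.5 ± 0.18 above ICM and -1.68 ± 0.18 from EpiSC. Lefty1, the feedback inhibitor of Nodal, was 1.3 ± 0.16 above ICM and -2.37 ± 0.16 from EpiSC, and the ectoenzyme gene Enpp3 was 1.2 ± 0.14 above ICM and -1.99 ± 0.14 from EpiSC. Fgf5 and Otx2, also primed markers, were not called. Fgf5 was at 3.43 and 3.18 in FGF-ESC and 3.15 and 2.87 in ICM (0.29 ± 0.17) against 5.72 and 6.07 in EpiSC. Otx2 was at 4.87 and 5.34 against 6.12 and 6.08 in ICM, a difference of -0.99 ± 0.19 that was called lower after quantile normalization and without FGF-ESC array 2 or ICM array 2.

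A wider view came from genes that separate the reference lines. The EpiSC and ESC arrays are not used in the FGF-ESC minus ICM difference. By the same rule 525 genes were higher in EpiSC than in ESC (3.86% of those tested) and 476 were lower (3.5%). Of the 525, 215 (41.0%) were higher in FGF-ESC than in ICM and 30 (5.7%) lower, with a median difference of 0.76. Of the 476 ESC-high genes, 103 (21.6%) were higher and 89 (18.7%) lower, with a median of 0.08. Both classes thus held more called genes than the background of 9.57% and 5.22%, apart from the lower genes among the 525, and the ESC-high class was split between the directions. The shared SE and filter can build in part of that excess, and how much was not tested. The 525 held 15 of the 25 primed genes, but also 4 of the 24 fibroblast markers and 11 of the 36 interferon-stimulated genes. EpiSC had feeders and ESC did not, and the part of the feeders in these counts was not tested.

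**Figure D3:**
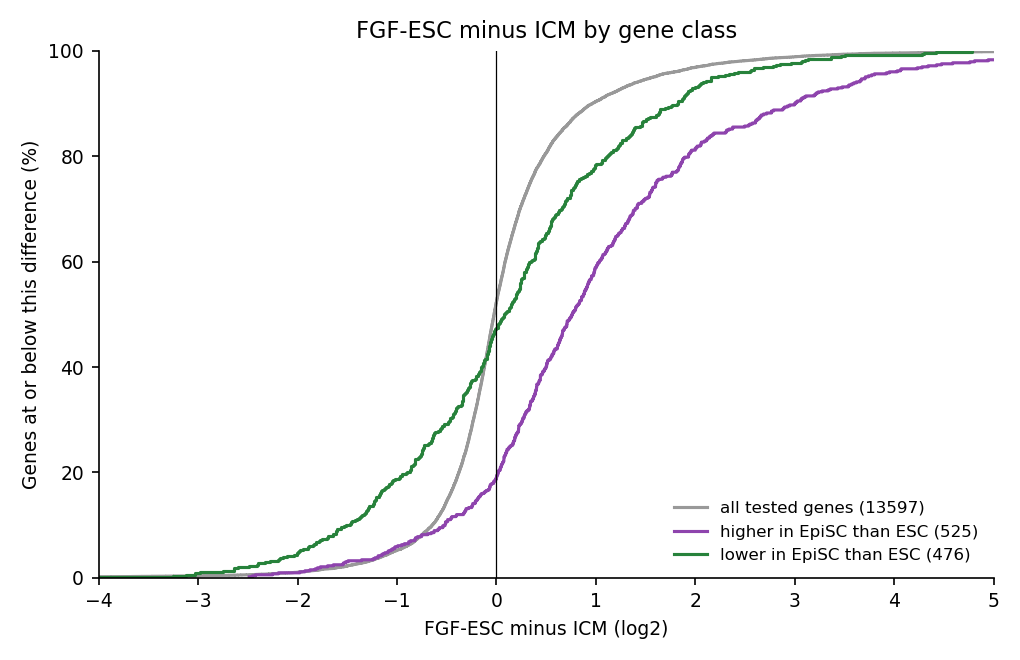
Share of genes (vertical, percent) at or below each FGF-ESC minus ICM difference (horizontal, log2), for all tested genes, for 525 genes higher in EpiSC than in ESC, and for 476 genes lower. The first class is shifted to the right over most of its range, with a median of 0.76, while the second is wider than all genes on both sides of 0.

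Of 22 FGF and ERK target genes, 8 were higher, 0 lower and 14 neither, with a median of 0.83. Egr1, an immediate early factor induced by ERK, rose from 5.90 and 6.22 in ICM to 10.06 and 9.37 (3.65 ± 0.23). It was also high in EpiSC (8.61 and 8.92) and lower in ESC (6.39 and 6.49). Ier3 (2.94 ± 0.26), the feedback inhibitor Spry4 (2.21 ± 0.22) and Fos (1.78 ± 0.23) rose too. Each of these 4 was higher on FGF-ESC array 1 than on array 2, as was the mean of the list (7.29 and 6.89), the order of the fibroblast markers, whose part was not tested. Ier3 measured 8.65 and 7.79 in FGF-ESC and no more than 5.89 on any other array. Dusp6, an ERK phosphatase, was at 9.18 and 9.06 against 8.11 and 8.02 (1.06 ± 0.12, and 2.39 by a second probe set). Etv5 (0.25 ± 0.12) and Spry2 (-0.22 ± 0.14) were not called, and both were at 8.98 or above on every ICM array. Of 25 immediate early and stress genes 16 were higher and 0 lower, with the ERK phosphatase gene Dusp1 at 2.00 ± 0.22 and Ier2 at 1.5 ± 0.15. Without FGF-ESC array 1 the count was 11.

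Of 19 FGF ligand, receptor and coreceptor genes, 7 were higher and 2 lower, with a median of 0.09 (-0.09 without FGF-ESC array 1 and 0.42 without array 2). The 2 lower were Fgfr2 and the heparan sulfate carrier Sdc4, which was not called without FGF-ESC array 2. Fgf7, a ligand made by mesenchymal cells, was at 7.60 and 6.71 in FGF-ESC and at 4.01 or less on all other arrays (3.36 ± 0.25 from ICM). Fgf7 passed the filter on dim genes through the FGF-ESC arrays alone, which fixed its direction. Its level moved with the fibroblast markers, and their part in it was not tested. The heparan sulfate carriers Sdc2 (3.08 ± 0.22), Gpc3 (2.08 ± 0.20) and Sdc1 (1.70 ± 0.18), which present FGFs to receptors, rose as well. Sdc2 and Gpc3 did not differ by the call rule from ESC or EpiSC.

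In the LIF and STAT3 pathway 7 of 22 genes were higher and 1, Tfcp2l1, was lower (2 without FGF-ESC array 1), although LIF is not named among the additions to the FGF-ESC medium. Socs3, the STAT3 feedback inhibitor, measured 7.16 and 7.31 in FGF-ESC, 4.56 and 4.79 in ICM, 7.62 and 7.57 in ESC, and 5.94 and 6.19 in EpiSC (2.56 ± 0.14 from ICM). A second probe set of Socs3 gave 0.42. Bcl3, a STAT3-induced coactivator, was 1.46 ± 0.23 above ICM and 2.33 ± 0.23 above EpiSC. Socs2, another feedback inhibitor, was 1.48 ± 0.13 above ICM, and its second probe set gave 0.51. Osmr, the oncostatin receptor, was at 7.42 and 5.54 in FGF-ESC and 3.45 or below on every other array, so it too followed the fibroblast level of the 2 arrays. Osmr passed the filter on dim genes through the FGF-ESC arrays alone, which fixed its direction. Stat3 itself was not called (-0.03 ± 0.27), nor was Lif (0.59 ± 0.28), at 6.37 and 5.64 against 5.75 and 5.08.

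Of 24 WNT genes 4 were higher and 1 lower (16.7% and 4.2%, against 9.57% and 5.22% of all tested genes). Tcf7l1, the repressor of the pluripotency network, rose from 4.29 and 4.93 to 6.77 and 6.8 (2.17 ± 0.19), while Axin2, the negative feedback target of WNT, was lower (-1.28 ± 0.14). Axin2 was also lower than in ESC (-1.05 ± 0.14). Of 18 BMP genes 4 were higher and 0 lower, and 7 were higher without FGF-ESC array 2. The protease gene Bmp1, at 7.92 and 6.19 on FGF-ESC arrays 1 and 2 (3.35 ± 0.46), and the BMP antagonist Grem1, at 7.01 and 5.49 (2.64 ± 0.40), were both higher on the array with more fibroblast signal, whose part was not tested. Grem1 passed the filter on dim genes through the FGF-ESC arrays alone, which fixed its direction. The BMP targets Id2 (0.02 ± 0.15) and Id3 (0.10 ± 0.29) were not called. Of 23 Nodal genes 4 were higher and 3 lower (17.4% and 13.0%), and 1 of the 4 passed the filter through the FGF-ESC arrays alone. The lower ones were the proprotein convertase Pcsk6 (-1.51 ± 0.14), Gsc (-1.25 ± 0.16) and Eomes.

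Among DNA methylation genes, 3 of 20 were higher, 2 lower and 15 neither. These counts rest on few genes. Whether they differ from the shares over all tested genes (9.57% higher and 5.22% lower) was not tested. The de novo methyltransferases Dnmt3b, at 8.87 and 8.60 against 7.88 and 8.05 (0.77 ± 0.14), and Dnmt3a (0.43 ± 0.11) passed the p threshold without reaching the fold minimum. Their cofactor Dnmt3l was not called against ICM (-0.10 ± 0.14). The maintenance enzyme Dnmt1 differed by 0.67 ± 0.13, and its guide Uhrf1 by 0.16 ± 0.14. Tet2, which oxidises methylcytosine, was lower at 6.15 and 6.61 against 8.09 and 8.43 (-1.88 ± 0.22) and higher than in EpiSC (2.38 ± 0.22). The higher genes were Gadd45b (2.39 ± 0.31), the deaminase Apobec1 (1.79 ± 0.20) and Gadd45g, whose call was lost in most alternative settings.

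Germline genes that are silenced by promoter methylation moved both ways: of 21, 6 were higher, 6 lower and 9 neither, and 3 were lower without ICM array 1. The higher ones included the meiotic genes Hormad1 (2.15 ± 0.32), Hsf2bp (1.89 ± 0.20) and Stra8 (1.67 ± 0.32), the piRNA factor Tdrd12 (1.54 ± 0.18) and the RNA-binding Dazl (1.23 ± 0.16). Hormad1 measured 5.96 and 7.02 in FGF-ESC, 4.46 and 4.21 in ICM, and between 3.49 and 5.32 in ESC and EpiSC. All 5 were also above EpiSC by the call rule. Lower ones included Asz1, a piRNA pathway gene (-2.56 ± 0.13), and Stk31 (-1.73 ± 0.15), both as low in ESC and EpiSC. Asz1 and Stk31 passed the filter on dim genes through the ICM arrays alone, and Stra8 through the FGF-ESC arrays alone. Their direction was therefore fixed by the filter.

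Of 31 imprinted genes, 10 were higher than in ICM and 1 lower (2 without FGF-ESC array 1), with a median of 0.58. Phlda2, a maternally expressed restrainer of placental growth, measured 6.64 and 7.28 against 3.30 and 3.06 (3.79 ± 0.24). The paternally expressed zinc finger gene Peg3 was at 8.18 and 8.17 against 5.67 and 5.64 (2.52 ± 0.11), and Grb10, a growth restraining adaptor, rose by 2.31 ± 0.15. Nnat, a small membrane protein gene, rose by 3.5 ± 0.27 (1.71 by a second probe set) and was also above ESC (1.43 ± 0.27) and EpiSC (3.57 ± 0.27). Plagl1 showed 3.47 ± 0.40, but 0.67 by its second probe set. The 1 lower gene, Sfmbt2, a polycomb-type gene needed in trophoblast, was at 5.41 and 5.06 against 7.18 and 7.24 (-1.98 ± 0.15), while EpiSC kept it at 7.48 and 7.46.

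Of 25 glycolysis, pyruvate and lactate genes, 12 were higher, 0 lower and 13 neither, with a median of 0.96, and the count stayed between 11 and 13 without any 1 FGF-ESC or ICM array. Pdk1, a kinase that closes the entry of pyruvate into mitochondria, measured 8.63 and 9.16 in FGF-ESC against 3.52 and 3.65 in ICM (5.31 ± 0.17). The ICM level was below the overall median, and a second probe set gave a difference of 1.85. ESC (8.48 and 8.52) and EpiSC (7.53 and 7.61) were high as well. Pdk4 (2.81 ± 0.18) and Pdk3 (2.49 ± 0.15), kinases of the same family, also rose. Of these, Pdk4 alone was above both ESC (1.94 ± 0.18) and EpiSC (2.67 ± 0.18).

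The lactate dehydrogenase subunit gene Ldhb was at 7.55 and 8.54 against 4.36 and 4.80 (3.47 ± 0.29), and the glycolytic enzymes Tpi1 and Pgk1 rose by 2.08 ± 0.12 and 1.95 ± 0.14. Gapdh (0.28 ± 0.12) and the glucose carrier Slc2a1 (0.23 ± 0.17), both bright in ICM, were not called. Since Pgk1 and Hprt (-1.35 ± 0.13) were called in opposite directions among 10 housekeeping genes, neither served as a level control here. Of 70 respiratory chain and ATP synthase subunits 0 were higher and 1 lower (Cox7a1, not called without FGF-ESC array 1), with a median of -0.12. Ribosomal protein genes had 0 higher and 3 lower of 63 cytosolic genes and 0 higher and 1 lower (0 without FGF-ESC array 2) of 70 mitochondrial ones. The cytosolic exceptions Rpl39l (-2.45 ± 0.17), Rps29 (-1.60 ± 0.13) and Rpl10l are genes with close copies, and Rpl10l lost its call without FGF-ESC array 1 or either ICM array.

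Of 17 amino acid carriers 6 were higher, 2 lower and 9 neither, with a median of 0.72. The glutamine and alanine carrier Slc38a2 measured 8.62 and 8.54 against 4.65 and 3.88 (4.31 ± 0.22). The cationic amino acid carrier Slc7a3 (3.21 ± 0.13), the light subunit gene Slc7a7 (3.0 ± 0.13), Slc38a1 (2.43 ± 0.12) and the glutamine carrier Slc1a5 (1.63 ± 0.18) rose with it. Slc1a1 and Slc7a6 (-1.78 ± 0.15) were the lower ones. Of these 2, 1 passed the filter on dim genes through the ICM arrays alone. Of the 5 carriers named as higher, Slc7a7 alone differed by the call rule from ESC (1.53 ± 0.13), and 0 of the 5 did from EpiSC.

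Of 23 cholesterol genes 7 were higher and 0 lower, with a median of 0.42 (0.70 without FGF-ESC array 2). Cyp51, the lanosterol demethylase, was at 7.89 and 7.57 against 5.53 and 3.99 (2.97 ± 0.40). Sc5d (1.84 ± 0.22), the epoxidase Sqle (1.47 ± 0.19), the squalene synthase Fdft1 (1.21 ± 0.13) and the regulator Srebf2 (1.2 ± 0.12) rose. The farnesyl synthase Fdps (-0.16 ± 0.14) and the feedback gene Insig1 (0.22 ± 0.14) were not called.

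**Figure D4:**
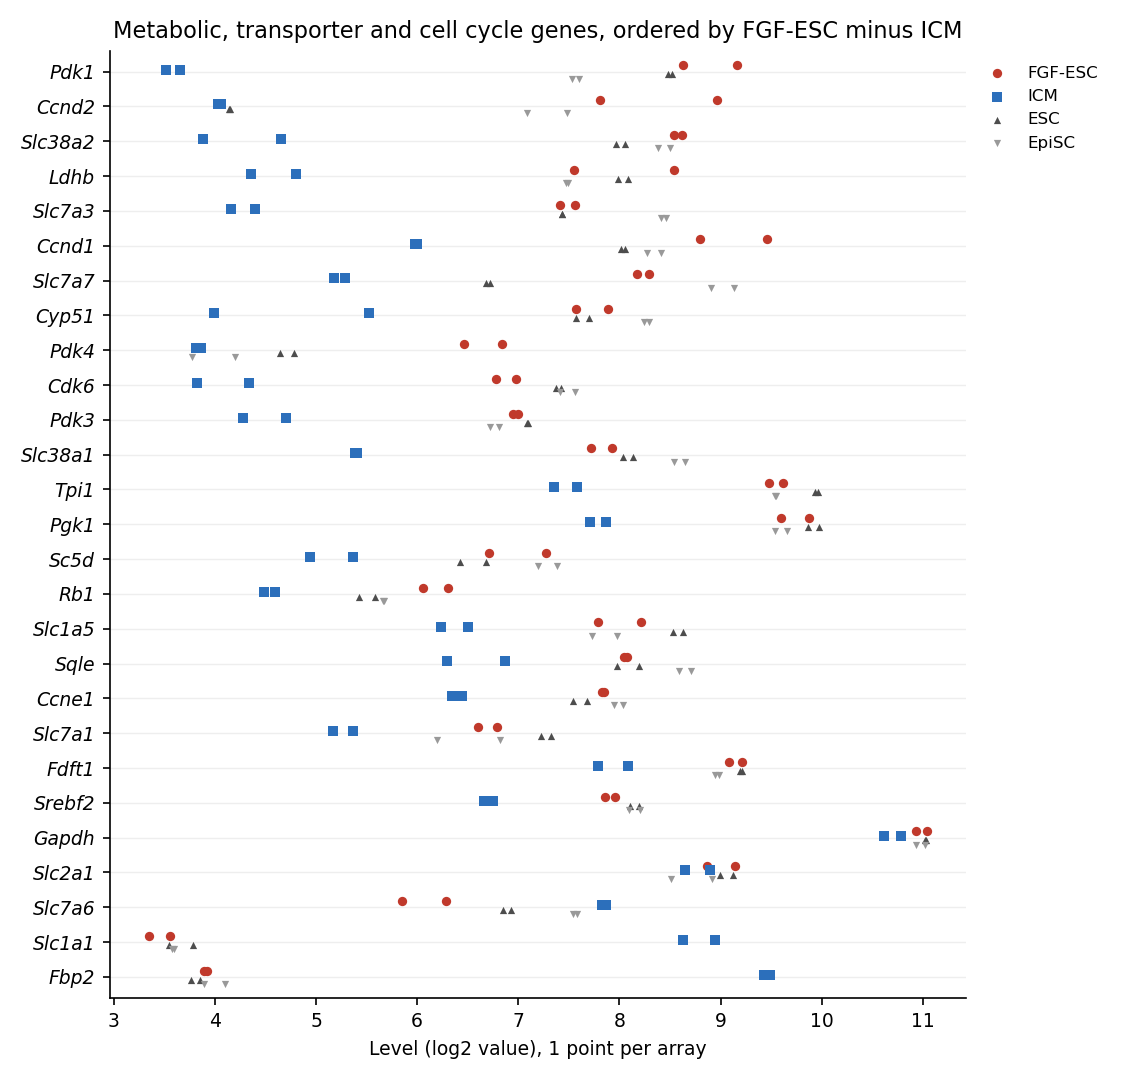
Level of 27 metabolic, transporter and cell cycle genes (log2 value), 1 point per array, with symbols for FGF-ESC, ICM, ESC and EpiSC as in the plot of pluripotency and lineage genes. For most of the upper rows the 3 cultured groups lie together to the right of ICM, and for Slc1a1 and Fbp2 they lie together to its left.

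Among 33 cell cycle and replication genes 7 were higher and 0 lower, with a median of 0.22 (0.076 without FGF-ESC array 2), and regulators of the G1 phase were among the 7. Ccnd2, a D-type cyclin, measured 8.97 and 7.80 in FGF-ESC against 4.06 and 4.03 in ICM (4.34 ± 0.32), and Ccnd1 9.46 and 8.79 against 5.98 and 6.00 (3.14 ± 0.20). Their kinase Cdk6 rose by 2.81 ± 0.18, the retinoblastoma gene Rb1 by 1.64 ± 0.13 (3.18 by a second probe set) and the cyclin E gene Ccne1 by 1.44 ± 0.12. Pcna (0.19 ± 0.12), Cdk1 (-0.05 ± 0.16), Top2a (0.39 ± 0.16) and Ccna2 (-0.19 ± 0.16) were not called. In feeder-free ESC Ccnd2 was at 4.13 and 4.15, close to ICM, and in EpiSC at 7.48 and 7.09. It was higher on the FGF-ESC array with more fibroblast signal, and the part of feeder cells in it was not tested.

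Of 20 genes of p53 and its targets 5 were higher and 1 lower, but the higher count was 2 without FGF-ESC array 1 and 3 without ICM array 1. Of the 5, 1 passed the filter on dim genes through the FGF-ESC arrays alone. The cell cycle inhibitor Cdkn1a was at 10.72 and 10.15 against 9.21 and 9.0 (1.33 ± 0.21), and the death receptor Fas rose by 1.94 ± 0.23. Sesn1, a stress-induced inhibitor of growth signalling, was lower (-1.5 ± 0.14). In the BCL2 family 1 of 12 genes changed, the pore-forming Bak1, at 9.01 and 8.78 against 6.42 and 6.19 (2.59 ± 0.14), a level shared by ESC and EpiSC. Of 23 polycomb genes 1 was higher (2 without ICM array 2) and 2 lower: Phc1, a PRC1 subunit, rose by 3.0 ± 0.20, and the PRC2 subunits Aebp2 (-1.40 ± 0.12) and Suz12 (-1.16 ± 0.14) were lower. Of 36 proteasome subunits 3 were higher and 1 lower (0 without ICM array 2). The higher ones were the germ cell subunit gene Psma8 (2.30 ± 0.17) and the immunoproteasome subunit genes Psmb8 and Psmb10. Hox cluster genes had 0 of 10 tested called in either direction. Canonical histone genes had 0 of 14 higher and 2 lower (1 without FGF-ESC array 1 or ICM array 1). Over all tested genes the shares were 9.57% higher and 5.22% lower. Those of the BCL2 (8.3% and 0.0%), polycomb (4.3% and 8.7%) and proteasome (8.3% and 2.8%) lists were near them.

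The largest rises of all were in genes of fibroblasts and inflammation. All 24 tested fibroblast markers were higher, of 17 chemokines and cytokines 12 were higher, of 20 mesenchymal genes 14, and 0 were lower in any of these lists. The median differences were 3.23, 2.87 and 2.00 in this order, and 2.46, 2.46 and 1.41 without FGF-ESC array 1. Of the called ones, 3 fibroblast, 3 chemokine and 2 mesenchymal genes passed the filter through the FGF-ESC arrays alone. Emp1, an epithelial membrane protein, measured 10.26 and 9.67 in FGF-ESC against 2.67 and 3.01 in ICM (7.12 ± 0.32, and 3.12 by a second probe set). It headed the list of rises. The chemokine Ccl2 was at 11.40 and 10.82 against 3.85 and 4.31 (7.03 ± 0.26), and the collagen gene Col1a2 at 10.42 and 9.69 against 3.13 and 3.11 (6.93 ± 0.23). The matrix proteoglycans Dcn and Lum, the metalloproteinase Mmp3, the annexin gene Anxa1, the chemokines Ccl7 and Ccl8 and the DNA sensor family gene Ifi204, which has close copies, followed with differences between 5.82 and 6.49.

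All of these were also higher than in ESC and EpiSC by the call rule. On each of them, FGF-ESC array 1 exceeded array 2, as it did in the mean of the fibroblast list. Among mesenchymal genes, Vim, the intermediate filament of mesenchyme, was at 10.95 and 10.15 against 6.58 and 6.46 (4.03 ± 0.24), and S100a4 and S100a6 rose by 5.45 ± 0.33 and 4.07 ± 0.21. The transition factor Snai2 rose by 2.56 ± 0.27, and Snai1 was not called (0.39 ± 0.50), though it was called higher without FGF-ESC array 2. Feeder fibroblasts in the FGF-ESC cultures are confounded with the comparison, since ICM had none. How much of each rise came from them was not tested.

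The 12 largest rises also held Bex1 and Crabp1. Bex1, a small adaptor gene of stem and nerve cells, was at 9.91 and 10.18 in FGF-ESC and 4.93 and 3.70 in ICM (5.73 ± 0.33, 53.1-fold). It was at 10.26 to 10.38 in ESC and EpiSC, and FGF-ESC did not differ from either by the call rule. Crabp1, a retinoic acid binding protein, was at 10.72 and 10.45 against 4.23 and 5.07 (5.94 ± 0.26), and at intermediate levels of 6.99 and 6.76 in ESC and 8.25 and 8.61 in EpiSC.

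Of 36 interferon-stimulated genes 32 were higher and 0 lower, with a median of 2.52, and 2 of the 32 passed the filter through the FGF-ESC arrays alone. Without FGF-ESC array 1, 26 were called and the median was 1.86. Their mean level was 7.75 and 6.72 on FGF-ESC arrays 1 and 2, 4.64 and 4.58 in ICM, 5.11 and 5.18 in ESC, and 6.29 and 6.26 in EpiSC. As in the fibroblast mean, FGF-ESC array 1 was above array 2 and both were above the other 6 arrays. Within the list, members differed in their level in ESC. These cells lacked feeders but also had another medium with serum, LIF and 2i, and the part of each was not tested. Ifitm3, a restriction factor of viral entry and an early germ cell gene, measured 10.56 and 10.32 in FGF-ESC and 4.81 and 5.02 in ICM (5.52 ± 0.14, 46.0-fold). Feeder-free ESC had it at 10.16 and 10.07, and FGF-ESC exceeded them by 0.32 ± 0.14, which was not called. Ifi27, in contrast, was at 8.21 and 8.18 in FGF-ESC, 3.70 and 3.84 in ICM, 3.11 and 3.60 in ESC, and 6.97 and 6.78 in EpiSC (4.42 ± 0.17 from ICM). The RNA sensors Eif2ak2 (3.67 ± 0.25) and Ddx58 (2.73 ± 0.18) rose as well, and Trim25 (0.62 ± 0.21) and Ifitm1 (0.27 ± 0.22) were not called.

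Genes of this class often carry the interferon-stimulated response element in their promoters. Its letters were searched as 2 copies of GAAA with any 2 bases between them, or of TTTC for the other strand, in RefSeq windows of 300 bases, 250 before and 50 after each gene's start (GRCm38.p6). Among 29 list genes with such a window, 14 held a match (48.3%), against 3.99% of 27025 genes. A match was present in 11 of the 21 genes called higher that had a window, and in 3 of the 8 others. Stretches of 4 such promoters are given 5′ to 3′ on the gene's strand, with every base of a match in capitals. They are the called genes with the smallest adjusted p among those with 1 window and a match wholly before the start.
Bst2: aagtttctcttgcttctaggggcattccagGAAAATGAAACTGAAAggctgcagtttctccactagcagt
Ifitm2: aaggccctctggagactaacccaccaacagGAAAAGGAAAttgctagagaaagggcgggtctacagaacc
Isg15: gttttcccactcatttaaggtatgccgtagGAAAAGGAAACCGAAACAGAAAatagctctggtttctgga
Stat2: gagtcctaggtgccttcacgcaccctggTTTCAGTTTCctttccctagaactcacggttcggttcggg
They lie at chr8:71537563-71537632 (minus strand), chr7:140955968-140956037 (minus), chr4:156200857-156200926 (minus) and chr10:128270248-128270315 (plus). Bst2 and Isg15 hold overlapping matches, and that of Stat2 reads on the other strand.

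Their levels took different courses. Bst2, or tetherin, which holds budding virus at the membrane, was 3.71 ± 0.26 above ICM, and FGF-ESC exceeded ESC (1.96 ± 0.26) but not EpiSC (-0.26 ± 0.26, not called). Isg15, a ubiquitin-like modifier, was at 9.75 and 7.96 in FGF-ESC and rose by 3.80 ± 0.48, with EpiSC at 8.85 and 8.58. Ifitm2, a relative of Ifitm3, rose by 2.09 ± 0.22 and did not differ by the call rule from ESC or EpiSC. Stat2, part of the factor that binds the element, was at 7.73 and 6.14 and rose by 2.90 ± 0.43. A match in the letters is a description and was not tested as a binding site.

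Antigen presentation genes rose in part, with 8 of 16 higher and 0 lower and a median of 1.05 (0.67 without FGF-ESC array 1). B2m, which encodes the light chain shared by MHC class I molecules, was at 10.94 and 10.73 in FGF-ESC, 7.28 and 7.42 in ICM, 8.65 and 8.66 in ESC, and 9.29 and 9.38 in EpiSC (3.49 ± 0.12 from ICM). The immunoproteasome genes Psmb8 (1.96 ± 0.35) and Psmb10 (1.67 ± 0.18) rose, and the heavy chain gene H2-K1 was not called (-0.28 ± 0.21), at 8.11 and 7.48 against 7.95 and 8.20.

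**Figure D5:**
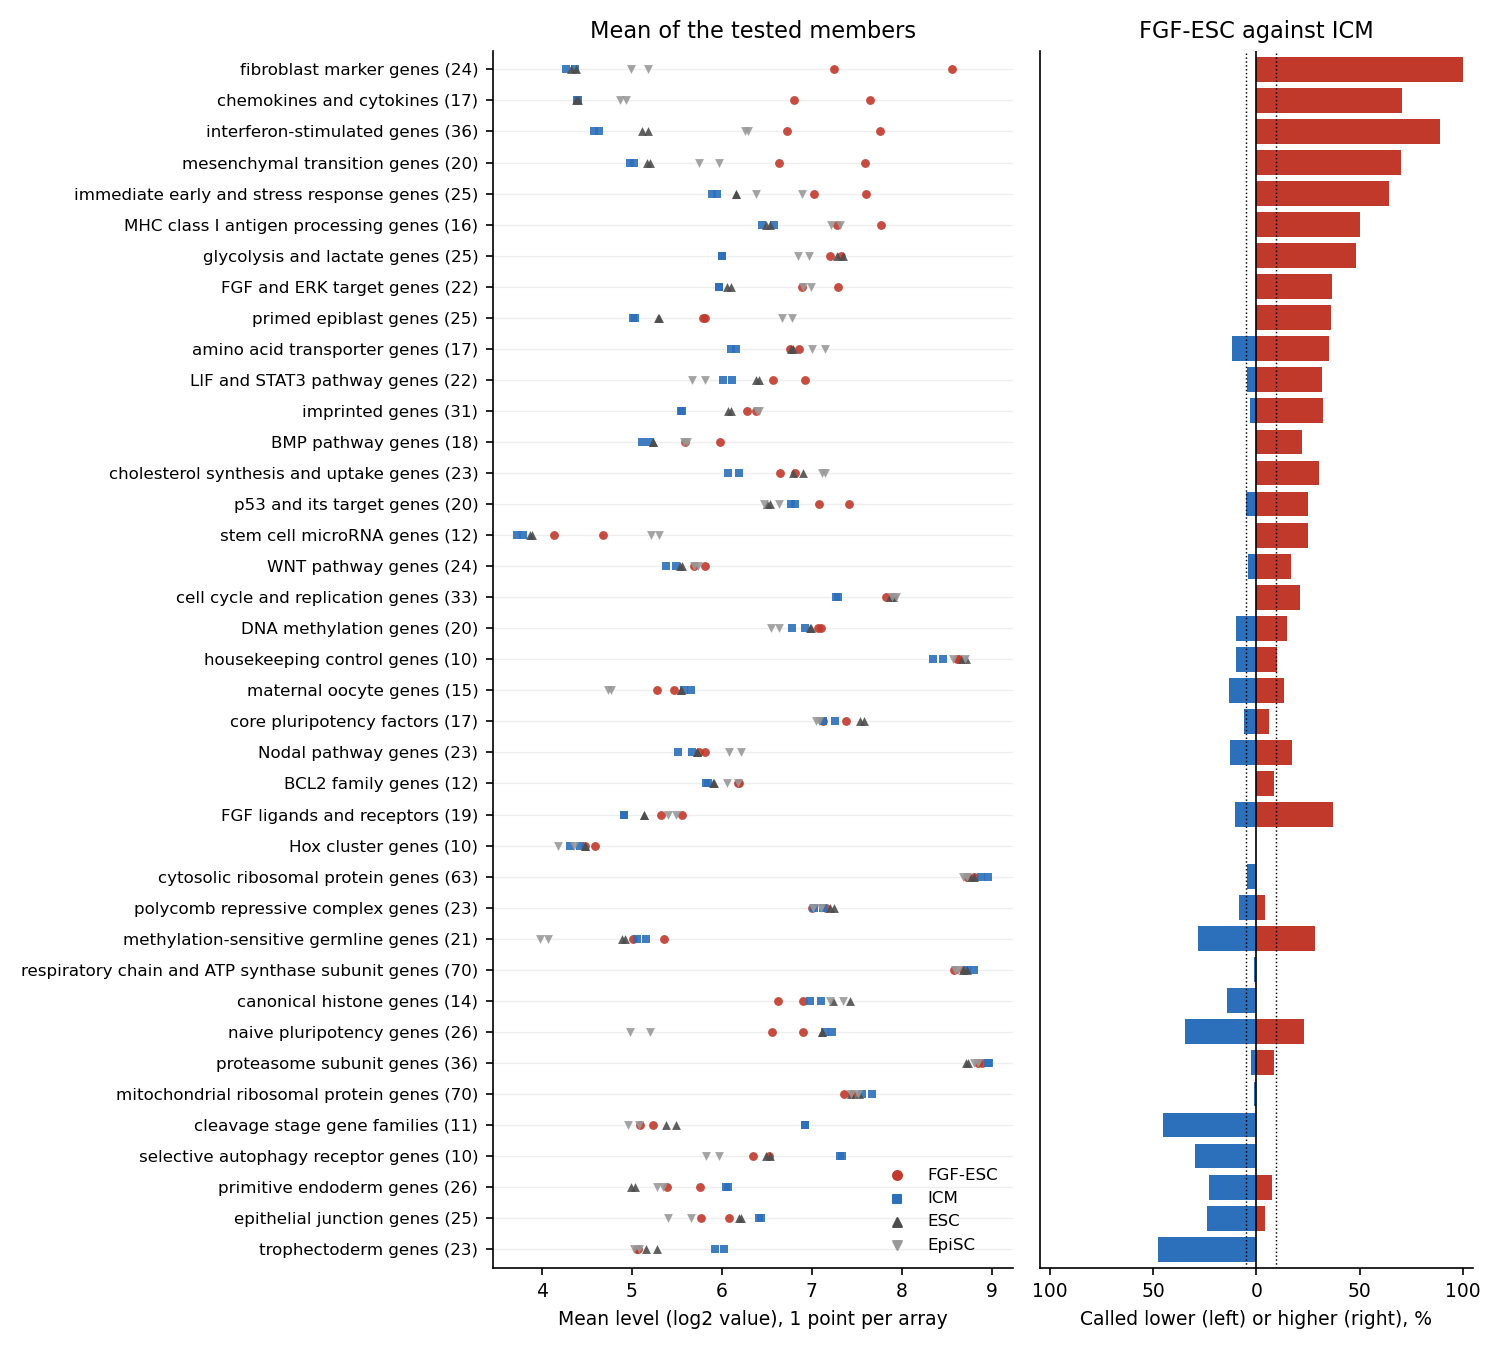
Left, mean level of the tested members of each gene list (log2 value), 1 point per array. Right, share of tested members called lower (blue, left) or higher (red, right) in FGF-ESC than in ICM, with dotted lines at the share over all tested genes, 5.22% lower and 9.57% higher. Fibroblast, chemokine and interferon lists stand at the top with the FGF-ESC arrays apart from each other, and trophectoderm genes close the order.

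Stem cell microRNA genes were read by probe sets of their precursor or host transcripts, so the values are not levels of mature microRNA. Of 12 tested, 3 were higher and 0 lower, with a median of 0.33 (0.20 without FGF-ESC array 2). The mature sequences are shown, with the seed (bases 2 to 8) in capitals, because 4 of the genes form 2 pairs with a shared seed. They are from RefSeq (GRCm38.p6), 5′ to 3′.
miR-363-3p: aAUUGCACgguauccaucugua
miR-367-3p: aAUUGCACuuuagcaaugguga
miR-17-5p: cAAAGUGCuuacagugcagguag
miR-20a-5p: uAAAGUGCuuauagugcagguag
let-7f-5p: uGAGGUAGuagauuguauaguu
The first pair share the seed AUUGCAC and come from chrX:52741697-52741718 (minus strand) and chr3:127545779-127545800 (plus). The next pair share AAAGUGC and lie close together at chr14:115043684-115043706 and chr14:115044183-115044205 (plus). The last is the copy encoded at chr13:48537889-48537910 (minus).

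Mir363 was at 6.08 and 6.94 in FGF-ESC, 2.63 and 2.55 in ICM, 3.89 and 3.73 in ESC, and 6.33 and 5.73 in EpiSC (3.92 ± 0.29 from ICM). Mir367, which is in the miR-302 cluster of primed cells, was at 2.42 and 2.75 in FGF-ESC and not called against ICM (0.16 ± 0.15), while EpiSC had 5.58 and 5.72. Mir363 therefore rose to the EpiSC level and Mir367 did not, with a tested difference from EpiSC of -3.07 ± 0.15. In the cluster on chromosome 14, Mir17 rose by 1.33 ± 0.23, not called without FGF-ESC array 2, and Mir20a, just under the fold minimum, was not called (1.0 ± 0.27) but was without FGF-ESC array 1 or ICM array 1. Mirlet7f-1, of the let-7 family that marks differentiation, was at 3.70 and 5.0 against 2.55 and 2.53 (1.82 ± 0.35).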

How the data were processed

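Biotin-labelled cDNA, amplified with NuGEN kits per the labels, was hybridised to Affymetrix Mouse Gene 2.1 arrays. Each probe set has 1 value per array as deposited by the authors, and the submitters' processing notes name Affymetrix Expression Console 1.3.1. How probes were summarised, and the genome build, is not given in the sources used here. Those deposited values, from 1.63 to 12.2, were read as log2 intensities and used without further normalization (array medians 4.16 to 4.28). Of 41345 probe sets 23521 have 1 gene symbol, and the brightest one stood for a gene. Genes that exceeded 4.24, the overall median, on 2 or more arrays were tested (13597 of 22180).

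A means model over the 8 arrays was fitted with limma 3.58.1 in R 4.3.3, so the SE is pooled over the 4 groups. It can understate the spread of FGF-ESC (residual SD 0.279; ICM had 0.208, EpiSC 0.151 and ESC 0.124). The number of arrays limits the precision. The code was checked on simulated data.

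The members and lists were chosen with earlier results of these data known, and the pattern for histone names was corrected afterwards. Named genes are the 12 largest rises and falls, a panel of 30, and from each list up to 6 called members per direction by adjusted p and 4 uncalled ones by brightness. Named outside this rule are Mir367 and the promoter genes Bst2, Isg15, Ifitm2 and Stat2. Replicate numbers were not found to pair arrays (correlation of deviations from -0.086 to 0.042).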

Additional observations from a re-analysis of the deposited data

Results flagged for a closer look

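Probe sets without a single gene symbol, with none or several genes in the annotation, are outside the comparisons above. By the same rule 547 of 8879 such probe sets were higher in FGF-ESC than in ICM and 757 were lower.

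For some panel genes FGF-ESC differed from ICM in one direction and another culture in the opposite one, and the difference between the cultures was called. Klf4 was 1.34 above ICM in FGF-ESC and at -2.48 from it in EpiSC, with FGF-ESC minus EpiSC at 3.83 ± 0.13. Fgf4 (1.18 and -0.61, difference 1.78 ± 0.23) and Prdm14 (0.79 and -0.61, difference 1.40 ± 0.20) showed the same order. Eomes was at -1.26 from ICM in FGF-ESC and 0.23 in EpiSC, a difference of -1.49 ± 0.18. Against ESC, Tfcp2l1 (-1.28 in FGF-ESC and 0.47 in ESC, difference -1.75 ± 0.16) and Dnmt3l (-0.10 and 1.2, difference -1.30 ± 0.14) did so. The FGF-ESC minus ICM differences of Prdm14 and Dnmt3l were not called, and all of these share the ICM arrays.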

How the results depend on the processing

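With the dim-gene filter, normalization, centring, arrays fitted, prior or probe-set rule changed, 1158 to 1354 genes were higher and 623 to 735 lower, and 1124 to 1515 and 698 to 755 when 1 array was left out. With the replicate block 1300 were higher and 711 lower, and the block changed no other count by over 1.5 times. Dropping the minimum fold gave 2673 and 2311, and a minimum log2 difference of 2 gave 427 and 145. Over all lists together 208 members were higher and 63 lower, and 191 to 225 and 59 to 67 with 1 array left out.

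Among genes higher in EpiSC than in ESC, 144 to 270 were higher and 25 to 31 lower with 1 array left out. Among those lower in EpiSC these were 82 to 119 and 74 to 104. Choosing the classes by a log2 difference of 2 gave 72 and 5, and 47 and 39.

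Of 163 genes called and named above, 153 kept call and direction in each of the 16 alternatives in which they were tested, and 9 of the 163 were not tested under the stricter filter. Signs turned for 12 uncalled genes when 1 array was left out, with ranges of -0.39 to 0.011 (Ccna2), -0.195 to 0.091 (Cdk1), -0.21 to 0.009 (Dnmt3l), -0.27 to 0.45 (Fgfr1), -0.59 to 0.031 (H2-K1), -0.14 to 0.18 (Id2), -0.39 to 0.59 (Id3), -0.073 to 0.62 (Ifitm1), -0.59 to 0.14 (Nanog), -1.25 to 0.24 (Pdgfra), -0.51 to 1.28 (Snai1) and -0.36 to 0.30 (Stat3). Stat3 was also at 0.043 after quantile normalization and 0.011 after centring. The cause was not tested. With 2 arrays a group and no detection calls, small differences and those of dim genes are the least certain.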
